A study of Mus musculus with 6 samples.

Results

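Integrins and the adhesion ligand Vcam1 were described in RNA from mouse spinal cord microglia, as 10 named genes (Vcam1, Itgam, Itgb2, Itgal, Itga4, Itgb1, Itgav, Itgb5, Itga6 and Itga9) out of 55401 genes in the count table. The genes were taken by symbol, and all 10 had enough counts to be tested. They were picked with the genotype comparison of these libraries already known: Vcam1 was among the genes with the smallest p-values in it, and the integrins are the family that holds its receptors. Differences between the genotypes are therefore given for these genes as a description. Where a test result is printed for them, it is not read as evidence of a difference. The libraries came from 2 groups of untreated 7-month-old mice. The controls were non-transgenic C57BL/6 animals (NTg), and the others were heterozygous double mutants (ATXN2-Q33;TDP-43), a knock-in of human ATXN2 with the label Q33 together with human TDP-43. Each group had 3 libraries named by the numbers in their titles (replicates 7, 9 and 11 for NTg, 8, 10 and 12 for the double mutants), and each library pooled microglia of 3 spinal cords, so a value is a mean over 3 animals. What drives the human TDP-43 gene is not given in the sources used here. Cells were collected with beads against CD11b, which is the protein of Itgam itself, and such beads also hold neutrophils and monocytes. The ATXN2-Q33;TDP-43 libraries are called mutant from here on.

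Integrins are pairs of an alpha and a beta subunit that span the cell membrane and hold cells to matrix or to other cells. The beta-2 integrins belong to leukocytes: Itgam with Itgb2 forms CR3, which binds complement-coated particles and ICAM-1, and Itgal with Itgb2 forms LFA-1. Itgb1 pairs with many alpha subunits, among them Itga4 and Itga9, whose complexes bind VCAM-1, and Itga6, whose complex binds laminin. Itgav pairs with Itgb5, Itgb1 and other beta subunits and binds vitronectin, fibronectin or latent TGF-beta. VCAM-1, the product of Vcam1, is a ligand of the immunoglobulin family, best known from inflamed endothelium, where it is induced by cytokines.

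The RefSeq promoter table (GRCm38.p6, the assembly of the counts) held 6 of the 10 genes: Itgam, Itga4, Itgb1, Itgav, Itgb5 and Itga9. The Itga9 entry has its start inside the gene of the count table, and the others start where that gene does. The 150 bases just upstream of the start are shown for Itgam and Itgb5, the members with the highest levels per length. They are on the plus strand at chr7:128062490-128062639 and chr16:33829515-33829664. Capitals mark GAGGAA, searched on both strands (TTCCTC is its reverse complement), the core recognised by PU.1, a transcription factor of macrophages.

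Itgam: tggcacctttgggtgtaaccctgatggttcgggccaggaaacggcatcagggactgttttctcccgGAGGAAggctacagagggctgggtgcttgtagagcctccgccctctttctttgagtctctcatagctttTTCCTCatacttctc

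Itgb5: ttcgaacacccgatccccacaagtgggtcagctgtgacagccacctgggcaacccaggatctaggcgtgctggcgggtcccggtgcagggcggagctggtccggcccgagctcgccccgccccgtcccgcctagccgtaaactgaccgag

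The Itgam window held these letters in 2 places, beginning 84 and 15 bases before the start. The windows of Itgb5, Itga4 and Itga9 held none, and those of Itgb1 and Itgav held 1 each. Of the 32851 promoters in the table, 14.5% held the letters in the same window, and a match is only a description of the sequence.

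Library totals ran from 12553570 to 22854628 counts. Levels are counts per 1000000 (CPM) on library sizes scaled by the TMM method, and levels per length are CPM per kilobase of exon. Of the cell type marker lists, the microglia list had the highest sum in each library. The 10 microglia markers (P2ry12, Tmem119, Cx3cr1 and others) summed to between 10438 and 15174 CPM. Other cells were present unevenly. Neutrophil markers summed to between 55.1 and 1625 CPM, oligodendrocyte markers to between 168 and 1649 CPM and endothelial markers to between 90.9 and 345 CPM. NTg replicate 9 and mutant replicate 10 had the highest endothelial and oligodendrocyte sums, and mutant replicates 8 and 10 the highest neutrophil and monocyte sums. In these bulk libraries, fewer cells of a type and less RNA per cell cannot be told apart.

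Per length, the members spanned a wide range and are given here in order from high to low. Itgb5 stood highest at 372 ± 57.7 CPM per kilobase (SD over all 6 libraries, here and in the rest of this paragraph), rank 111 of the 16248 genes tested. Itgam followed at 283 ± 36.4 and Itgb2 at 204 ± 11.1, ranks 151 and 215. Itgb1, the common partner of the VCAM-1 receptors, was at 61.3 ± 3.99. Itga6 (33.6 ± 3.34) and Itgav (28.9 ± 1.59) came next. Itga9 (11.6 ± 1.03) and its ligand Vcam1 (10.4 ± 1.77) lay close together. The lymphocyte-type subunits Itgal (2.67 ± 1.22) and Itga4 (1.89 ± 0.551) were lowest, at ranks 9140 and 10337. Of the 9 steps down this order, 5 separated genes whose ranges over the 6 libraries did not overlap. The ranges of Itgb5 and Itgam overlapped, but Itgb5 was the higher in 6 of 6 libraries. The ranges also overlapped for Itga6 and Itgav, Itga9 and Vcam1, and Itgal and Itga4, and the order of these neighbours held in 5, 4 and 5 of the 6 libraries. Vcam1 was above Itga9 in NTg replicates 9 and 11 and below it in the other 4 libraries. Without the division by exon length the order of these close genes changed. In CPM, as means over the 6 libraries, Itgam (1421) was above Itgb5 (1322) and Itgav (310) above Itga6 (307). Vcam1 (91.9) was then above Itga9 (89.4), and Itga4 (26.4) above Itgal (17.5).

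**Figure D1:**
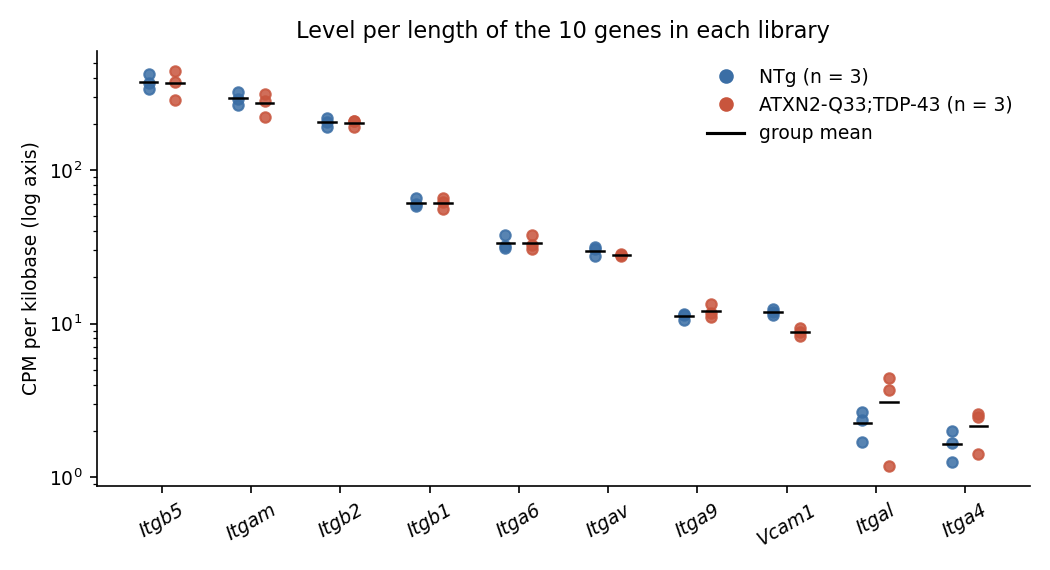
Level per length of the 10 genes. The x axis lists the genes in order of their mean, the log y axis gives CPM per kilobase of exon, each point is a library (blue NTg, red ATXN2-Q33;TDP-43, n = 3 each) and black bars are group means. Itgb5, Itgam and Itgb2 stand on top, Itgal and Itga4 at the bottom with the widest scatter.

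Among all 18 integrin alpha genes, the 6 alpha members held 75.4% ± 4.57 of the summed level per length in NTg and 76.7% ± 4.21 in mutant libraries (SD, n = 3 each). Itgam alone held 59.5% ± 4.53 and 59.4% ± 5.09. The largest alpha gene outside the members was Itga5, the fibronectin receptor subunit, at 21.8% ± 4.15 and 20.6% ± 3.70. Among the 9 beta genes, the 3 beta members held 97.8% ± 0.189 and 97.4% ± 0.645. Itgb5 took 57.2% ± 2.15 and 56.3% ± 4.30, Itgb2 31.2% ± 1.97 and 31.6% ± 3.02, and Itgb1 9.37% ± 0.321 and 9.50% ± 0.642. The next beta gene, Itgb3, another partner of Itgav, held 1.81% ± 0.126 and 1.88% ± 0.203. So, per length, the integrin RNA of these libraries was mostly Itgam on the alpha side and Itgb5 and Itgb2 on the beta side, in either genotype.

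Vcam1 (ENSMUSG00000027962, mm10 chromosome 3, 116109949 to 116129688, minus strand) was the 1 member whose libraries did not overlap between the genotypes. It measured 101, 105 and 111 CPM in NTg replicates 7, 9 and 11, against 77.7, 73.6 and 83.3 CPM in mutant replicates 8, 10 and 12. All 3 mutant libraries lay below all 3 NTg libraries. The means were 106 ± 5.10 and 78.2 ± 4.87 CPM (SD, n = 3 each), which is a log2 difference of -0.43 (95% interval from -0.63 to -0.24, SE 0.09), or a fold of 0.740 (interval 0.646 to 0.848). Non-overlap was seen for 582 of 16248 genes (3.58%) with lower values in the mutants and for 531 (3.27%) with higher values, and nothing is read from the Vcam1 case, since this contrast chose the gene. The spread within a group was small, with a coefficient of variation of 4.83% in NTg and 6.23% in mutants. Nothing is read from this either, since choosing a gene by its small p-value favours a small spread.

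Endothelial cells, which also make Vcam1, were present in these libraries. The 10 endothelial markers, all tested, summed to 96.3, 337 and 141 CPM in NTg replicates 7, 9 and 11, against 178, 345 and 90.9 CPM in mutant replicates 8, 10 and 12. The library with the highest endothelial sum, mutant replicate 10, had the lowest Vcam1 level. The part of endothelial cells in the Vcam1 values was not tested. Without replicates 9 and 10 the Vcam1 log2 fold change was -0.39 (SE 0.11). On a scale chosen after seeing the data, Vcam1 had 7.77, 9.09 and 7.51 CPM per 1000 CPM of the 10 microglia markers in NTg and 6.06, 7.05 and 5.49 in the mutants. These values rescale the libraries that chose Vcam1 and add no separate support.

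**Figure D2:**
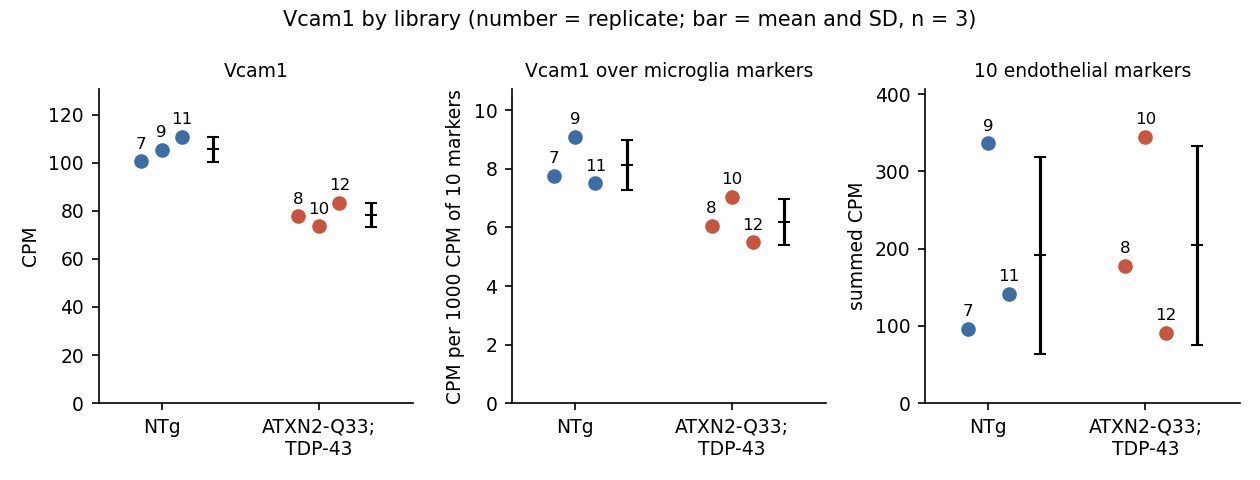
Vcam1 and endothelial markers by library. The y axes give Vcam1 in CPM (left), Vcam1 in CPM per 1000 CPM of the 10 microglia markers (middle) and the summed CPM of 10 endothelial markers (right), with a point per library, its replicate number, and the mean and SD (n = 3). Vcam1 lies between 101 and 111 CPM in NTg and between 73.6 and 83.3 CPM in the mutants, while the endothelial sums of the groups overlap.

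Vcam1 stood well below Icam1, the other major ligand of leukocyte integrins. Icam1, which the beta-2 integrins bind, stood at 266 ± 26.8 CPM per kilobase (SD over 6 libraries), beside 10.4 for Vcam1. Icam1 per length was 22.6 ± 1.98 times the Vcam1 level in NTg libraries and 29.8 ± 2.10 times in mutants (SD, n = 3 each). The gap between the groups in this ratio restates the Vcam1 values that chose the gene and adds no separate support. Icam1 itself measured 1171 ± 102 CPM in NTg against 1149.7 ± 153 CPM in the mutants (SD, n = 3 each), which is a log2 difference of -0.03 (95% interval from -0.30 to 0.25, SE 0.12). Its libraries ran from 1058 to 1257 CPM in NTg and from 1005 to 1309 CPM in the mutants, so the groups overlapped.

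The beta-2 subunits were abundant and their groups overlapped. Itgam, the CD11b antigen of the beads (ENSMUSG00000030786, mm10 chromosome 7, 128062640 to 128118491), measured 1468, 1327 and 1619 CPM in NTg against 1413, 1118 and 1581 CPM in the mutants. The lowest value was mutant replicate 10 and the highest NTg replicate 11, and the groups overlapped. The log2 fold change was -0.10 (95% interval from -0.42 to 0.22, SE 0.14). Between neighbouring sample codes (7 and 8, 9 and 10, 11 and 12) Itgam was lower in the mutant each time. Nothing is read from this, since the share of all genes with such agreement is not given. With those codes as a block, a grouping the labels do not name, the value was -0.11 (SE 0.05, adjusted p = 0.547 in edgeR). A fused gene model on the same strand, Gm49368, shares exons with Itgam and held 76.1% to 77.9% as many counts in each library. Fragments in shared exons were counted for both genes, so Itgam reads cannot be fully told apart from those of that model. Itgb2, the CD18 subunit (ENSMUSG00000000290, mm10 chromosome 10, 77530252 to 77565708), measured 663, 583 and 628 CPM in NTg against 639.8, 578 and 639 CPM in the mutants. It was the steadiest member over all 6 libraries, with a coefficient of variation of 5.43%, and its log2 fold change was -0.01 (95% interval from -0.23 to 0.20, SE 0.09).

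Itgal, the alpha subunit of LFA-1 (ENSMUSG00000030830, mm10 chromosome 7, 127296260 to 127335138), was the most variable member. It measured 17.5, 15.5 and 11.1 CPM in NTg against 29.0, 24.4 and 7.74 CPM in the mutants. The highest and the lowest of the 6 libraries were both mutants, and the coefficient of variation was 54.9% within the mutants and 22.3% within NTg. The log2 fold change was 0.47 (95% interval from -0.75 to 1.69, SE 0.50), and it ran from 0.13 without mutant replicate 8 to 0.87 without replicate 12. All 10 neutrophil markers had a positive log2 fold change, and their sums were 619, 167 and 391 CPM in NTg replicates 7, 9 and 11, against 1625, 1048 and 55.1 CPM in mutant replicates 8, 10 and 12. The 3 libraries with the most Itgal were the 3 with the most neutrophil marker RNA, and mutant replicate 12 was lowest in both. Monocyte and fibroblast marker sums were also highest in mutant replicates 8 and 10 and lowest in replicate 12. Markers of T and NK cells, other cells with LFA-1, were near 0: 2 of 11 were tested, their sums ran from 2.72 to 5.27 CPM in NTg and from 4.36 to 7.33 CPM in the mutants, and Cd3e had 2 counts in all. The part of neutrophils, monocytes or other cells in the Itgal values was not tested.

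Per length, Itgam stood at 1.43 ± 0.118 times the Itgb2 level in NTg and 1.34 ± 0.164 times in mutants (SD, n = 3 each). Itgal stood at 0.0109 ± 0.00237 and 0.0154 ± 0.00851 of it. A ratio within a library does not depend on the library size, and both ratios overlapped between the groups. Itgal lies on the same chromosome as Itgam, 0.728 Mb before it. Itgax, the alpha subunit of CD11c, and Itgad follow Itgam on that chromosome. Their levels were 10.2 and 0.103 CPM per kilobase on average, so 4 alpha genes of 1 chromosome region differed by orders of magnitude.

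The beta-1 subunit and Itga6 had log2 fold changes near 0. Itgb1 (ENSMUSG00000025809, mm10 chromosome 8, 128685654 to 128733200) measured 245, 238 and 269 CPM in NTg against 254, 228 and 267 CPM in the mutants. The groups covered nearly the same range, with a log2 fold change of -0.01 (95% interval from -0.22 to 0.21, SE 0.10). Itga6, the laminin receptor subunit (ENSMUSG00000027111, mm10 chromosome 2, 71745616 to 71858416), measured 294, 285 and 346 CPM in NTg against 295, 278 and 346 CPM in the mutants. NTg replicate 11 and mutant replicate 12 were the high libraries of each group, and the log2 fold change was -0.01 (95% interval from -0.27 to 0.25, SE 0.12). Itga6 also followed Itgb1 closely, at 0.548 ± 0.0228 times its level per length in NTg and 0.547 ± 0.0299 times in mutants (SD, n = 3 each).

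The VCAM-1 receptor subunits differed from each other in level and spread. Itga9 (ENSMUSG00000039115, mm10 chromosome 9, 118606690 to 118901003) measured 87.9, 80.6 and 89.1 CPM in NTg against 89.9, 84.7 and 104 CPM in the mutants. Mutant replicate 12 stood above the rest, and the groups overlapped. The log2 fold change was 0.11 (95% interval from -0.11 to 0.34, SE 0.10). Between neighbouring sample codes Itga9 was higher in the mutant each time, and nothing is read from this, as for Itgam. With those codes as a block the value was 0.11 (SE 0.07, adjusted p = 0.705 in edgeR). Itga4, the alpha chain of VLA-4 (ENSMUSG00000027009, mm10 chromosome 2, 79255426 to 79333123), measured 17.4, 27.7 and 23.2 CPM in NTg against 36.3, 34.3 and 19.7 CPM in the mutants. Mutant replicates 8 and 10 were the highest 2 libraries, and replicate 12 lay within the NTg range. The log2 fold change was 0.40 (95% interval from -0.22 to 1.01, SE 0.26), and 0.63 (SE 0.19) without replicate 12. Monocytes carry VLA-4, and all 7 monocyte markers had a positive log2 fold change. Their sums were 64.5, 48.5 and 72.4 CPM in NTg against 134, 103 and 42.8 CPM in the mutants, highest in the same 2 libraries as Itga4. Those 2 libraries were also the highest for neutrophil, fibroblast and T and NK cell markers. The part of monocytes or other cells in the Itga4 values was not tested. Per length Itga9 stood at 6.14 times the Itga4 level over the 6 libraries. In CPM the means were 89.4 and 26.4, so Itga9 was the more abundant of these partners of Itgb1 on either scale.

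Itgav and Itgb5, which pair with each other, had unlike patterns. Itgav (ENSMUSG00000027087, mm10 chromosome 2, 83724397 to 83806916) measured 326, 337 and 296 CPM in NTg against 303, 303 and 298 CPM in the mutants. The mutant libraries were nearly equal, with a coefficient of variation of 0.882%, and lay inside the NTg range. The log2 fold change was -0.09 (95% interval from -0.28 to 0.11, SE 0.09). Itgb5 (ENSMUSG00000022817, mm10 chromosome 16, 33829665 to 33949338) measured 1309, 1199 and 1502 CPM in NTg against 1325, 1014 and 1581 CPM in the mutants. Mutant replicates 10 and 12 were the lowest and the highest of all 6 libraries. The log2 fold change was -0.03 (95% interval from -0.41 to 0.34, SE 0.16). Itgav stood at 0.0802 ± 0.0141 times Itgb5 per length in NTg and 0.0789 ± 0.0184 times in mutants (SD, n = 3 each), and from 0.0623 to 0.0987 over single libraries.

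The members differed in how they moved with the microglia markers. Those markers summed to 12937, 11601 and 14742 CPM in NTg replicates 7, 9 and 11, against 12810.0, 10438 and 15174 CPM in mutant replicates 8, 10 and 12. Divided by that sum, Itgb5 stood at 101, 103 and 102 CPM per 1000 marker CPM in NTg against 103, 97.1 and 104 in mutants. Its coefficient of variation over 6 libraries was 15.5% in CPM and 2.54% on that scale. Itgam went from 12.9% to 3.48%, Itga6 from 9.94% to 6.33% and the ligand Icam1 from 10.1% to 4.61%. The other members did not become steadier. Itgb2 went from 5.43% to 10.7%, Itgav from 5.50% to 16.9%, Itgb1 from 6.50% to 7.97%, Itga9 from 8.86% to 9.58%, Vcam1 from 17.05% to 17.9%, Itga4 from 29.1% to 39.4% and Itgal from 45.7% to 52.9%. These are descriptions over 6 libraries that share their scaling.

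**Figure D3:**
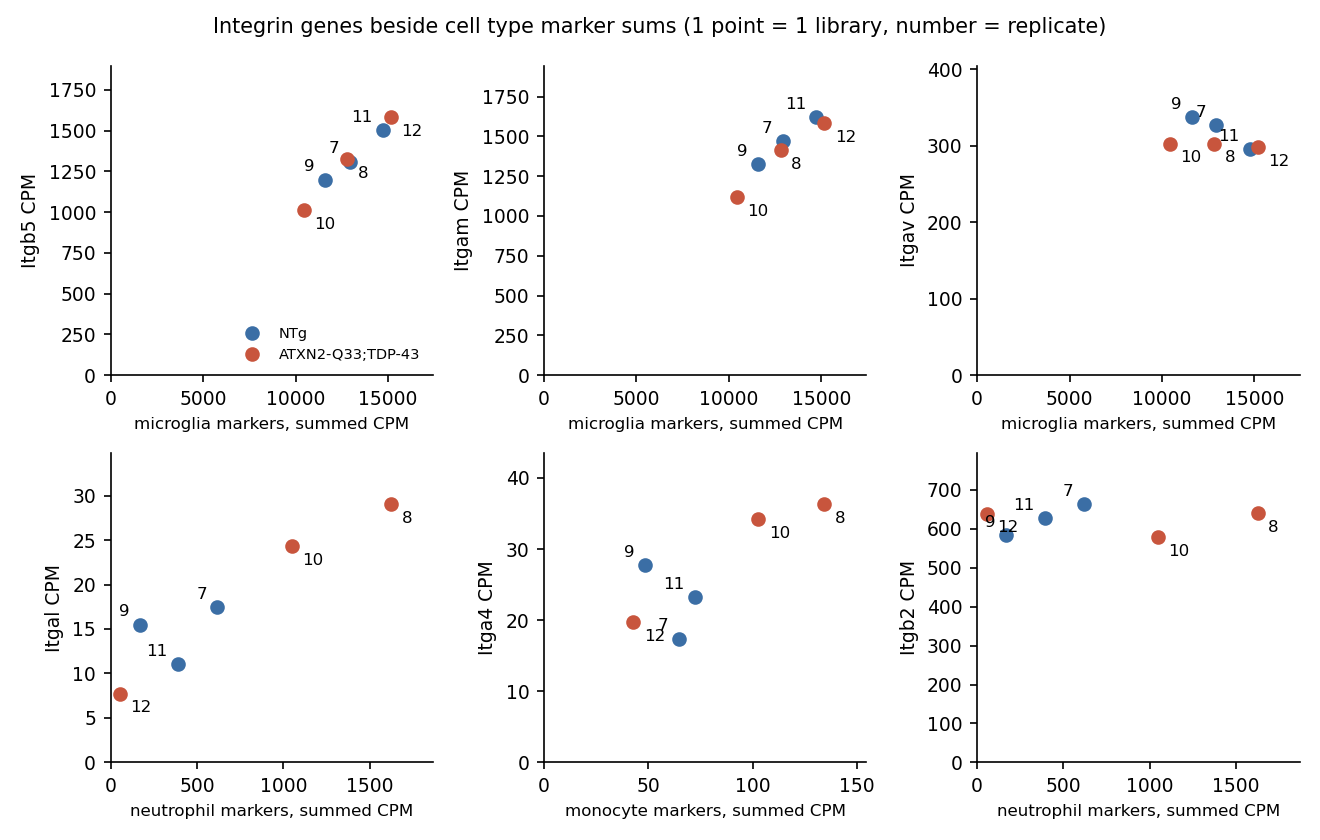
Integrin genes beside cell type markers. Each point is a library with its replicate number (blue NTg, red ATXN2-Q33;TDP-43), the x axis is the summed CPM of the named marker list and the y axis the CPM of the gene. Itgb5 and Itgam rise with the microglia markers and Itgav does not; Itgal is highest in replicates 8 and 10, where neutrophil markers reach 1625 and 1048 CPM, while Itgb2 stays between 578 and 663 CPM.

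Across all genes, edgeR's quasi-likelihood test called no difference between the genotypes. After Benjamini-Hochberg adjustment, 0 of 16248 genes (0%) were below 0.05, members included. At an unadjusted p under 0.05 there were 368 genes (2.26%), and Vcam1 was the 1 member among them, a count that the choice of Vcam1 fixes. DESeq2 called 7 genes (0.0431%), with 398 (2.45%) at an unadjusted p under 0.05, and limma's voom fit called 0 (0%), with 291 (1.79%). Neither called a member. With neighbouring sample codes as a block, a grouping the labels do not name, edgeR called 71 genes (0.437%) and 1 member, Vcam1. Over all genes the 3 closest pairs of libraries were those neighbours, each across the genotypes, at 6.73 (11 and 12), 9.44 (7 and 8) and 11.99 (9 and 10) chi-square units per degree of freedom. NTg replicates 7 and 9, of 1 genotype, were nearly as close at 12.12. The median log2 fold change of the members was -0.01, with 7 of 10 negative, beside 0.01 over all genes tested. The 95% intervals of the 9 integrin members all held 0. Their width sets what could be seen: the members' intervals reached between 0.20 and 1.22 to either side on the log2 scale, widest for Itgal.

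**Figure D4:**
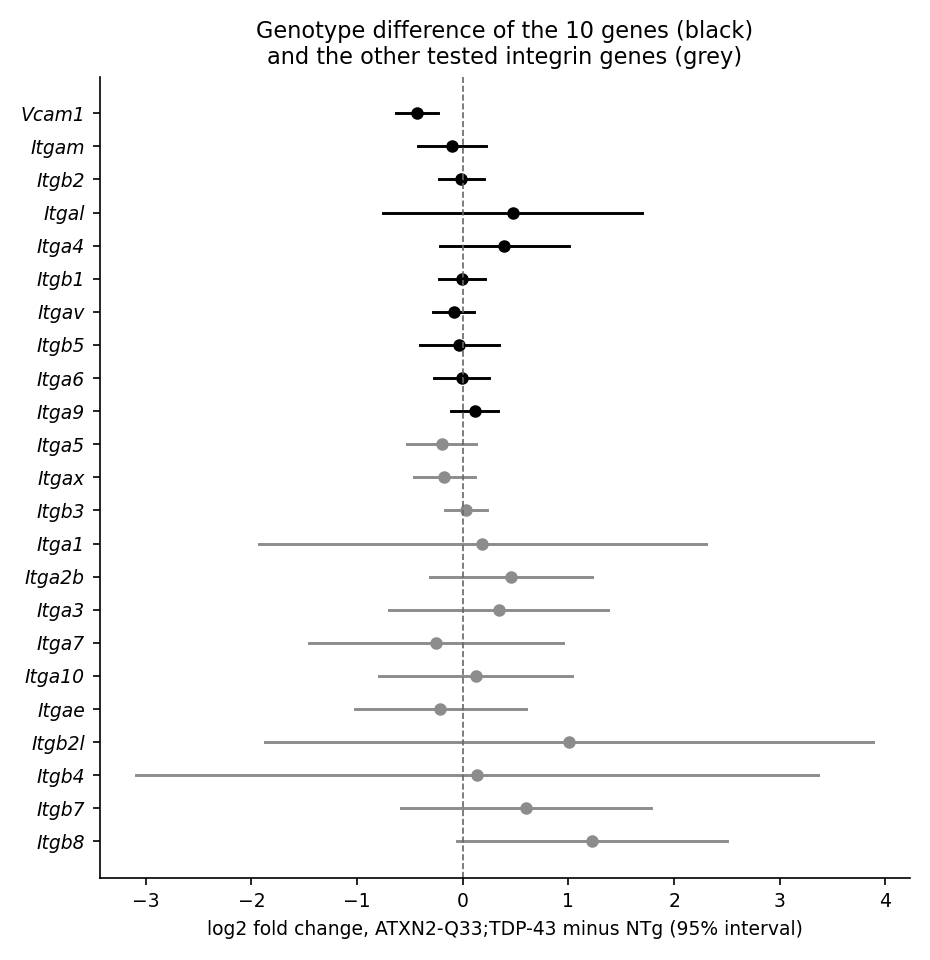
Genotype difference of integrin genes and Vcam1. The x axis is the log2 fold change, ATXN2-Q33;TDP-43 minus NTg, with its 95% interval from the edgeR fit, for the 10 members (black) and the 13 other tested integrin genes (grey). Vcam1, at -0.43, is the gene whose interval does not hold 0; it was chosen from this comparison.

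Of the 18 integrin genes that are not members, 13 had enough counts and 0 passed the test. Itga5 measured 529 ± 96.4 CPM in NTg against 460.4 ± 46.4 CPM in the mutants (SD, n = 3 each), which is a log2 difference of -0.20 (SE 0.14). Itgax had -0.17 (SE 0.13) and Itgb3 0.03 (SE 0.09). Itgb8, the partner of Itgav in activating TGF-beta, had the smallest p of the other beta genes and a log2 fold change of 1.22 (95% interval from -0.05 to 2.50, SE 0.55). It measured 2.09, 4.81 and 1.95 CPM in NTg against 4.23, 12.3 and 4.10 CPM in the mutants. The groups overlapped, and the high library was mutant replicate 10. That library also had the most astrocyte, ependymal, endothelial, mural, and T and NK cell marker RNA. The part of these cells in the Itgb8 values was not tested. Itgb7, the other partner of Itga4, had 0.60 (SE 0.52), and the mouse paralogue Itgb2l 1.01 (SE 1.12), and both had their 6 libraries in the order of the neutrophil sums. The other tested alpha genes were low, at 0.199 to 0.555 CPM per kilobase: Itga1 had a log2 fold change of 0.18 (SE 0.83), Itga2b 0.46 (SE 0.34), Itga3 0.34 (SE 0.46), Itga7 -0.25 (SE 0.53), Itga10 0.12 (SE 0.40) and Itgae -0.21 (SE 0.36). The laminin receptor beta chain Itgb4 had 0.14 (SE 1.29). Itga2, Itga8, Itga11, Itgad and Itgb6 were too low to test.

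The ligands and the machinery around integrins were read from lists chosen with earlier results known, and 0 members of any list passed the test over all genes. Of the cell surface ligands, 8 of 10 were tested, 4 positive and 4 negative, with a median log2 fold change of 0.03. Icam4, a red cell ligand, had 0.62 (SE 0.40), the junction molecule Jam3 0.39 (SE 0.30) and Cd47, the ligand of thrombospondin and SIRP-alpha, 0.09 (SE 0.08). Of the matrix and soluble ligands, 18 of 23 were tested, 13 positive and 5 negative, with a median of 0.25. Collagen genes Col1a1 and Col1a2 had 2.43 (SE 1.58) and 1.17 (SE 0.58), both with their highest value in mutant replicate 8, which also had the highest fibroblast sum at 30.1 CPM. Thbs1, a thrombospondin, measured 152, 133 and 126 CPM in NTg against 302, 382 and 76.4 CPM in the mutants, with 0.89 (SE 0.62). The fibrinogen genes Fga, Fgb and Fgg had 0 counts.

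Of the genes that switch integrins on or off, 18 were listed and 16 were tested, 7 positive and 9 negative, with a median log2 fold change of -0.03. Talin (Tln1), which binds the beta tail, measured 1040.0 ± 71.0 CPM in NTg against 1009 ± 99.8 CPM in the mutants (SD, n = 3 each). The smallest p-values of that list belonged to Cyth1 (0.31, SE 0.18), the small GTPase Rap1a (-0.10, SE 0.09) and Sharpin, an integrin inhibitor (0.13, SE 0.12), as log2 fold changes. All 28 genes of signalling at adhesion sites were tested, 16 positive and 12 negative, with a median of 0.02. The adaptor Crk had -0.18 (SE 0.10) and the kinase Syk 0.11 (SE 0.08). The kinase Src measured 72.6, 72.2 and 72.9 CPM in NTg against 66.7, 66.1 and 66.1 CPM in the mutants, or -0.13 as a log2 fold change (95% interval from -0.30 to 0.04, SE 0.08). Its groups did not overlap, as for 582 of 16248 genes (3.58%) with lower mutant values, and its p did not pass. The groups of Cd47, Sharpin and Syk did not overlap either, with higher mutant values, as for 531 genes (3.27%). Of the other adhesion genes, 8 of 10 were tested, 5 positive and 3 negative, with a median of 0.13. On the log2 scale the cell contact gene Alcam differed by 0.21 (SE 0.26) and Pecam1 by 0.14 (SE 0.36), with overlapping groups for both.

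Genes with the profile most like that of Vcam1 were sought among 7860 other protein-coding genes of at least 10 CPM. Likeness was the root mean square difference between log2 CPM profiles over the 6 libraries, each centred on its mean, and its median was 0.250 over those genes. The nearest 5 were Usp20 (0.0653), a deubiquitinase, Caprin2 (0.0837), Dpm2 (0.0841), a subunit of dolichol-phosphate mannose synthase, Plau (0.0864), the urokinase plasminogen activator, and the chemokine Ccl12 (0.0956). Usp20 measured 11.2, 10.9 and 11.9 CPM in NTg against 8.75, 8.48 and 9.71 CPM in the mutants. Ccl12 measured 35.8, 35.8 and 35.9 CPM in NTg against 25.7, 27.2 and 32.8 CPM in the mutants. A profile like that of Vcam1 has lower mutant values by construction, so these are no separate evidence of a difference. For Itgal, the most variable member, the median was 0.658 and the nearest 5 were Cytip (0.114), a lymphocyte adaptor that binds cytohesin, the glutathione reductase gene Gsr (0.154), Emilin2 (0.165), Antxr2 (0.214) and Gm47283 (0.216). Cytip measured 19.1, 14.4 and 13.6 CPM in NTg against 29.7, 25.2 and 8.36 CPM in the mutants, highest in mutant replicate 8 and lowest in replicate 12, as for Itgal.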

How the data were processed

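The authors deposited raw counts of read pairs for each gene. Per the file headers, featureCounts 1.6.1 counted them on GENCODE vM25 exons. It used the strand (setting 2), dropped chimeric pairs and counted a pair for every gene it overlapped. Trim Galore 0.4.1 and TopHat2 on mm10 came before that, per the submitters' processing notes. Another 6 sample columns of the table were not used. Symbols were matched by Ensembl identifier for 55141 of 55401 genes.

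Genes were filtered with filterByExpr (minimum count 10) and fitted with edgeR 4.0.16 in R 4.3.3 (TMM, robust quasi-likelihood, no covariates, adjusted threshold 0.05). Fold changes are mutant minus NTg. CPM per kilobase divides by the exon length in the deposited table. Likeness used a pseudocount of 0.5. DESeq2 1.42.0 and limma 3.58.1 were alternatives, with library-wise omissions, other size factors, no filter and covariates. The edgeR step was tested on simulated data. Each library, a pool of 3 spinal cords, was taken as 1 replicate. Library pairs differed by 6.73 to 38.7 chi-square units per degree of freedom, which does not by itself show that the libraries are independent.

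The members, lists and alternatives were chosen with earlier results of these data known. The naming rule took all 10 members, the other integrin genes, the 3 genes of smallest p in each list and the 5 nearest profiles. A gene that this rule named is not reported here. Icam1, Tln1 and the scale over microglia markers were added after their values were seen. Sums of other marker lists ran from 13.1 to 17.02 CPM (platelet), 36.1 to 156 (mural), 77.1 to 114 (border macrophage), 125 to 158 (B cell) and 10.3 to 114 (erythroid).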

Additional observations from a re-analysis of the deposited data

How the results depend on the processing

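Counts of called genes depended on the test. Against 0 in the edgeR fit, DESeq2 called 7 genes, no filter on low counts gave 6, and leaving out libraries 9 and 10 together, an alternative chosen after seeing the data, gave 1. Leaving out a single library gave 0 to 2, with 2 without mutant replicate 12. A replicate block of neighbouring sample codes, which the labels do not name as pairs, gave 71 genes and 1 member, Vcam1 (adjusted p = 0.00557 in edgeR, against at least 0.133 under the other alternatives), which is no independent support since this contrast chose the gene. The closest library pairs were these neighbours, with NTg replicates 7 and 9 nearly as close (12.12 against 11.99 for 9 and 10). This is a hint from the data and not from the design. The block gave a smaller SE for 9 of the 10 members, Itga4 being the exception. The other alternatives called 0 members. Vcam1, Itgal, Itga4 and Itga9 kept their sign in all 13 alternatives. These alternatives refit the same libraries or a part of them, so a kept sign adds no separate support for any of these genes. For Vcam1, the contrast also chose the gene and its groups do not overlap. The log2 fold changes of the other 6 members, all near 0, did not keep their sign. With a single library left out they ran from -0.22 to 0.024 for Itgam, -0.061 to 0.033 for Itgb2, -0.058 to 0.054 for Itgb1, -0.19 to 0.12 for Itgb5 and -0.10 to 0.086 for Itga6. Without libraries 9 and 10, Itgb1 was at 0.023, Itgb5 at 0.053 and Itga6 at 0.0066. With the combined alignments (NTg replicates 7 and 9) as a covariate, where NTg rests on replicate 11, Itgav was at 0.027 and Vcam1 at -0.50. The cause was not tested. Of the 7 ratios between partner subunits, 0 separated the groups with all libraries, and 0 to 3 did with a library left out (3 without mutant replicate 12). Medians of the lists moved by more than the spread between libraries in 8 of 91 cases. Depth limits the low members: Itgal and Itga4 had 149 to 512 counts per library.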
